A study of Homo sapiens with 12 samples.

Results

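The SLC25 genes encode the mitochondrial carriers, and 48 of the 20056 protein-coding RefSeq genes (assembly GRCh38.p14) have a symbol that starts with SLC25A. All 48 were taken as members by that name alone, and a peak was counted on a member when it overlapped the gene span by 1 bp or more. Antisense, divergent and pseudogene entries whose symbols start in the same way were left out as not protein-coding. The measurements come from RBE cells, a human intrahepatic cholangiocarcinoma line, in which ac4C (N4-acetylcytidine), a cytidine that carries an acetyl group, was mapped on RNA. RNA was cut to 100 to 200 bp, pulled down with an antibody to ac4C and sequenced beside its input. One arm carried a control short hairpin RNA and the other a hairpin against NAT10, the enzyme that acetylates cytidine in RNA, with 3 immunoprecipitates and 3 inputs in each arm, 12 libraries in all. The hairpin against NAT10 was delivered by lentivirus, and puromycin-resistant cells were expanded into stable lines. The labels attach this same account to the control samples, so what the control cells received rests on their titles and genotype labels. No rescue or non-transduced cells were analysed here, and the labels do not say whether the 3 replicates of an arm came from separate transductions. The labels call the RNA polyadenylated, while the protocol starts from total RNA.

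The mitochondrial carriers are small proteins, built of a repeat of paired membrane helices, that sit in the inner mitochondrial membrane and exchange nucleotides, phosphate, carboxylates, amino acids, cofactors and metal ions between cytosol and matrix. They are encoded in the nucleus, translated in the cytosol and inserted by the import machinery of the mitochondrion. In epithelial tumour cells they feed oxidative phosphorylation and supply carbon and nitrogen for synthesis. NAT10 is best known for acetylating ribosomal and transfer RNA, and ac4C has also been reported on messenger RNA.

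The data are 1 peak list per arm, with 34365 peaks for the control arm and 28047 for the knockdown arm. No list separates the replicates, so the spread between them cannot be given, and no p-value is given between the arms. Read depth is unknown, and a gene with fewer peaks cannot be told apart from a gene with less RNA. The deposited peak score has no stated scale. Most scores lie above a lower edge at 10, and scores are used here mainly to describe or rank peaks within 1 list. The score was 0 for 907 control and 592 knockdown peaks and infinite for 67 and 60. Infinite scores hold the top ranks, and scores of 0 are dropped first when a list is shortened by score. A cut at a score of 20 is also applied to both lists. Whether a score means the same in both is not known, so differences at that cut are description only. Of 8 biliary epithelial markers, 7 had peaks in both lists, among them KRT7 with 11 control and 10 knockdown peaks, and EPCAM had none in either. The 8 neuronal markers had 66 control and 8 knockdown peaks in all, the 4 astrocyte markers 13 and 1, and of 4 hepatocyte markers ALB had 1 and 0. The 4 fibroblast markers had 1 peak in each list and the 3 leukocyte markers 6. NAT10 itself had 5 peaks in each list, which does not measure its RNA or protein.

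Of the 48 SLC25A genes, 26 had a peak in the control arm (54.2%) and 24 in the knockdown arm (50%), against 47.1% and 42.0% of all protein-coding genes. A peak in either list was present on 33 (68.8%), against 54.4%. The lists had 17 carriers in common, 9 had control peaks alone, 7 had knockdown peaks alone, and 15 had no peak. The number of peaks on the family was close in the lists, 70 with the control hairpin and 66 with the knockdown, so that the knockdown count was 94.3% of the control count, while counts summed over all protein-coding genes gave 81.7%. Which list held more peaks on the family depended on the lengths of the lists. With the control list shortened by score to the length of the knockdown list, the family had 55 control and 66 knockdown peaks, 120% of the control count, against 101% over all protein-coding genes. Every carrier with 3 or more control peaks also had a knockdown peak, except SLC25A11. A single peak was all there was on 5 of the 9 carriers with control peaks alone and on 6 of the 7 with knockdown peaks alone.

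**Figure D1:**
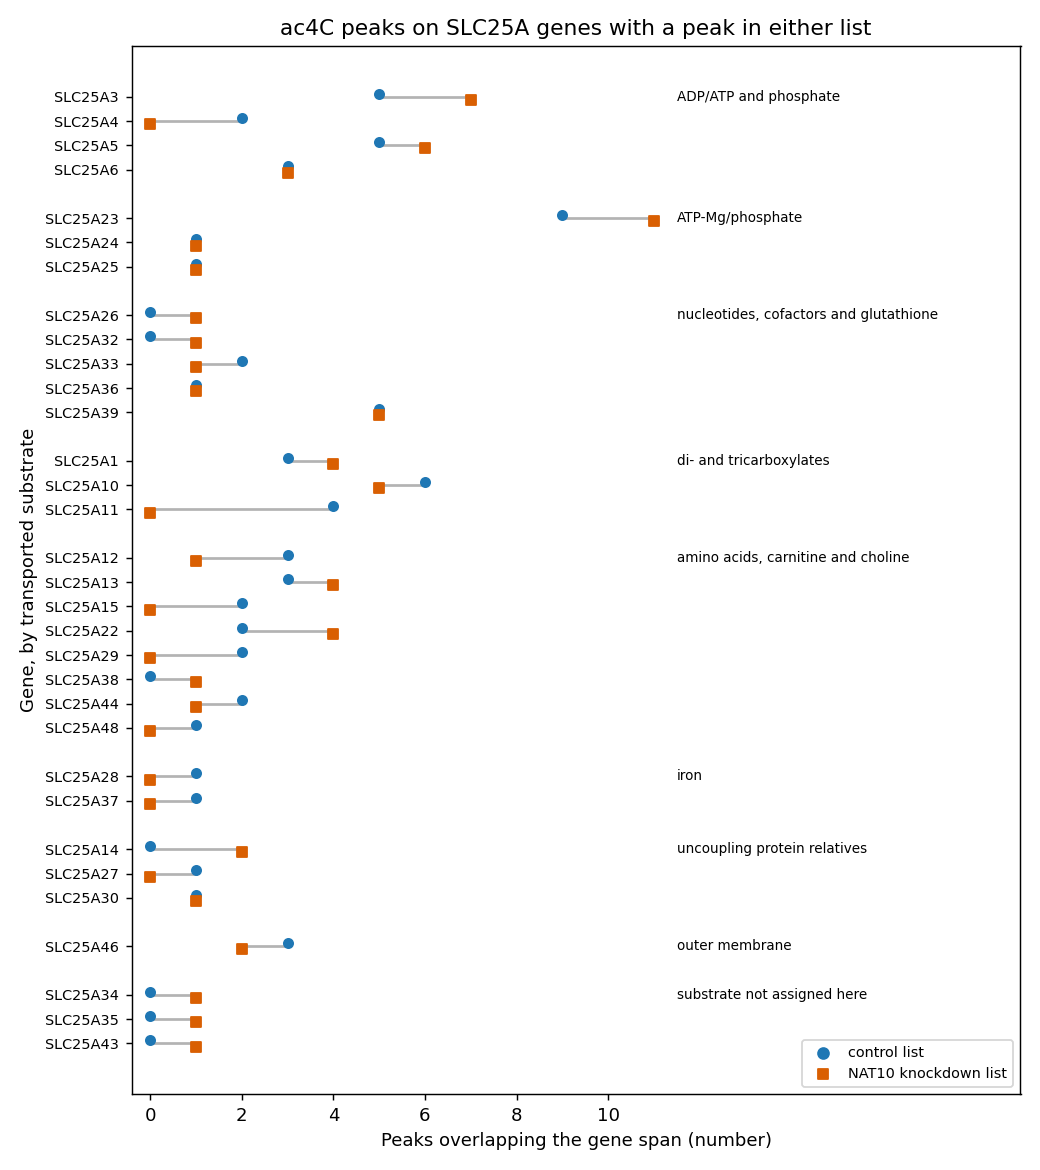
Number of peaks (horizontal axis) on SLC25A genes with a peak in either list that are named in the text, grouped by transported substrate, with circles for the control list and squares for the knockdown list. SLC25A23 had the most peaks, 9 and 11, and SLC25A11 had the widest gap, 4 and 0.

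Without a knockdown peak were 9 of the 26 carriers with a control peak, 34.6% (95% Wilson interval 19.4 to 53.8), against 26.3% of all protein-coding genes with a control peak. Without a control peak were 7 of the 24 carriers with a knockdown peak, 29.2% (14.9 to 49.2), against 17.4%. Both intervals include the share for all protein-coding genes. They cover counting error only and treat genes as independent. A call was then made where a gene with a peak in either list had at least 2 peaks fewer in the knockdown list and at most 50% of the control number (lower), or at least 2 more and at least 200% (higher). By this rule 5 of the 33 carriers with a peak were lower, SLC25A4, SLC25A11, SLC25A12, SLC25A15 and SLC25A29, against 19.4% of all protein-coding genes with a peak. SLC25A14 and SLC25A22 were higher, against 10.3%. As shares of the 33 these are 15.2% and 6.06%, neither above the share over all genes. The median difference per gene was 0, in the family as over all genes. With fewer knockdown than control peaks there were 14 carriers (all genes, 46.1%), with more there were 13 (33.3%), and 6 had equal numbers.

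The sequence at the start of 3 carriers is shown because the peaks there differ in kind. On SLC25A3, a 50 bp peak of the knockdown list lay in the first bases of the transcribed strand. On SLC25A12 and SLC25A48, long peaks that began far upstream reached only the first bases of the gene, and these were counted as gene peaks by the 1 bp rule. Each line runs 5′ to 3′ on the gene's strand, from 60 bases before the RefSeq start to 30 bases into the gene (RefSeq, GRCh38.p14), and capitals mark the bases that a peak covers.
SLC25A3: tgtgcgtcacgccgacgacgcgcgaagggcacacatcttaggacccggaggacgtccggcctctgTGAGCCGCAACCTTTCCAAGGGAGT
SLC25A12: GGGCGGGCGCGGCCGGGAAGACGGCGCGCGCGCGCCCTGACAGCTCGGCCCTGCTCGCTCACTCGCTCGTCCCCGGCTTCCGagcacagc
SLC25A48: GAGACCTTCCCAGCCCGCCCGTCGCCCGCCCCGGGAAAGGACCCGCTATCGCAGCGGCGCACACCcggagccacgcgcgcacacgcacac
The SLC25A3 window is chr12:98593626-98593715 on the plus strand, the SLC25A12 window chr2:171894215-171894304 on the minus strand, and the SLC25A48 window chr5:135579112-135579201 on the plus strand. Of the 25 peak bases shown inside SLC25A3, 7 are cytidines. The list gives spans only, so which cytidine was modified is not known.

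The carriers of energy metabolism, which move phosphate, ADP and ATP, held 15 control and 16 knockdown peaks on 4 of 5 genes. SLC25A3, the phosphate carrier that supplies the ATP synthase (chromosome 12, 98593686 to 98606367, plus strand), had 5 control and 7 knockdown peaks. Its peaks covered 2427 bp of the gene in each list, and 2227 bp were covered in both. The difference in number thus did not go with more covered length. An 1866 bp peak from 98595716 to 98597581 had identical limits in the lists, and it was the carrier peak with the highest knockdown score (124.7, rank 191 of 28047), while its control score was 45.2 (rank 794 of 34365). A 286 bp peak from 98601150 to 98601435 was also identical. The carrier peak with the highest control score was another one on SLC25A3, 175 bp from 98601536 to 98601710 with a score of 46.3 (rank 759), and no knockdown peak overlapped it. In the knockdown list only were 3 narrow peaks close to the gene start, the first of them from 98593691, base 6 of the gene, with a score of 17.04.

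The ADP/ATP carriers exchange matrix ATP for cytosolic ADP, and the paralogs did not share a pattern. SLC25A5, the form typical of dividing cells (chromosome X, 119468444 to 119471396, plus strand), had 5 control and 6 knockdown peaks, and each of its 5 control peaks overlapped a knockdown peak. Peaks of identical limits on it numbered 3, and one of these, 125 bp from 119468511, lay on the opposite strand and on the antisense gene SLC25A5-AS1, with scores of 23.9 and 23.5. The control list had 2 peaks of 125 and 487 bp toward the end of the gene where the knockdown list had 1 of 637 bp. SLC25A6 (chromosome X, 1386152 to 1392113, minus strand) had 3 peaks in each list at nearly the same limits, covering 90.7% and 88.6% of the gene. These are wide spans that can include introns. The middle one had a score of 11.7 (rank 20052) in the control list and 30.2 (rank 1895) in the knockdown list.

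SLC25A4, the heart and muscle form (chromosome 4, 185143266 to 185150382, plus strand), had 2 control peaks and 0 knockdown peaks. They lay close together, from 185146814 to 185146988 with a score of 18.9 and from 185147014 to 185147238 with a score of 18.0, near the middle of the gene. Of the protein-coding genes with exactly 2 control peaks, 25.5% had none in the knockdown list. SLC25A31, the testis form, had no peak in either list.

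Reads of these carriers can be split with near-identical copies elsewhere in the genome, which makes their peak numbers uncertain. RefSeq lists 43 SLC25A pseudogenes, of which 9 are copies of SLC25A5 and 6 of SLC25A6. Wholly inside a pseudogene lay 20 control peaks and 23 knockdown peaks, and 8 and 11 of these were on SLC25A5 copies. SLC25A6 copies held 3 in each list, SLC25A1 copies 4 in each, SLC25A39 copies 3 and 2, and SLC25A3 copies 1 and 2. No SLC25A4 or SLC25A11 pseudogene is in the annotation.

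The ATP-Mg/phosphate carriers, which are gated by calcium and set the adenine nucleotide content of the matrix, had peaks in both lists on 3 of 4 genes. SLC25A23 (chromosome 19, 6436081 to 6459792, minus strand) had the most peaks of any carrier, 9 control and 11 knockdown peaks, and 7 of each overlapped a peak of the other list. Its peaks covered 47.0% of the gene in control cells and 56.5% after the knockdown, mostly through a peak of 8779 bp that was 8729 bp in the knockdown list. Stretches were divided in either list, as a 175 bp control peak from 6440195 overlapped knockdown peaks of 25 and 100 bp and a 325 bp knockdown peak from 6440845 overlapped control peaks of 25 and 200 bp. The difference in number lay in 2 control and 4 knockdown peaks without a counterpart. SLC25A25 had 1 peak in each list at overlapping limits, 50 bp with a score of 13.8 (rank 11332) in the control list and 136 bp with 27.5 (rank 2272) in the knockdown list. SLC25A24 also had 1 in each, but far apart along the gene, and SLC25A41 had none.

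**Figure D2:**
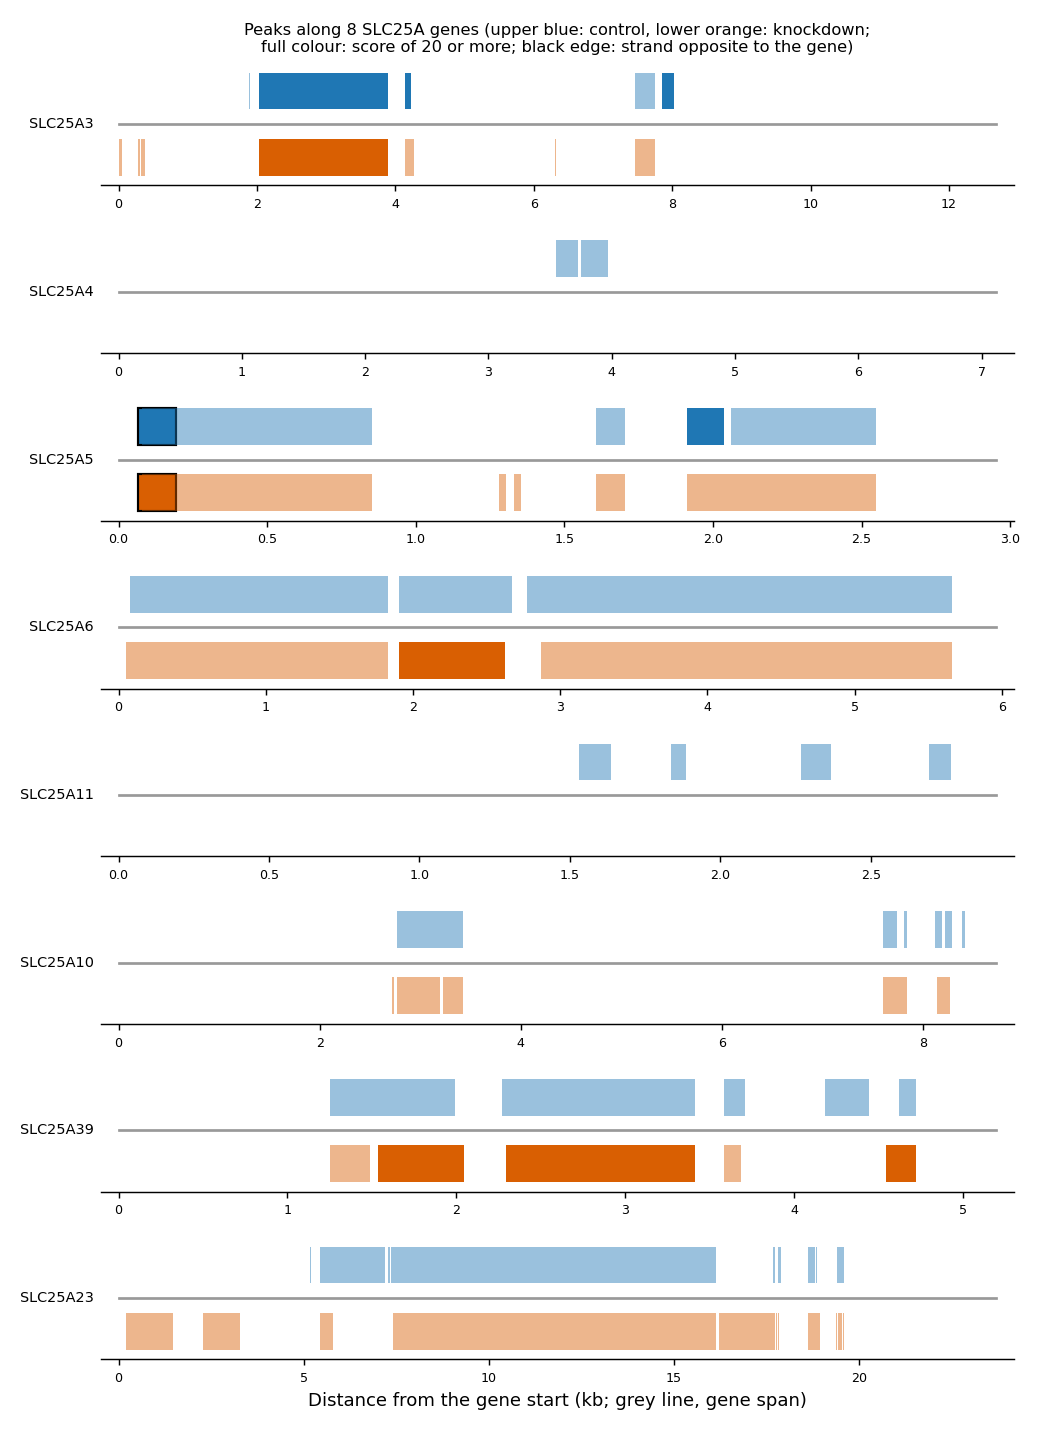
Peaks along 8 carriers, with the distance from the gene start in kb on the horizontal axis, control peaks above and knockdown peaks below the grey gene line. Full colour marks a score of 20 or more and a black edge a peak on the strand opposite to the gene. SLC25A4 and SLC25A11 have control peaks only, and SLC25A6 is covered almost from end to end in both lists.

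The carboxylate carriers link the citric acid cycle to the cytosol, and their 4 genes held 13 control and 9 knockdown peaks. SLC25A11, the oxoglutarate carrier of the malate-aspartate shuttle (chromosome 17, 4937130 to 4940046, minus strand), had 4 control peaks and 0 knockdown peaks. The control peaks were 50 to 107 bp wide, lay on the gene's own strand in its second part, and overlapped no other gene. Their scores were 13.5, 11.2, 11.9 and 17.8 in the direction of transcription. SLC25A11 was the 1 carrier with exactly 4 control peaks, and among all 816 protein-coding genes with 4, 14.2% had none in the knockdown list. It was also the 1 carrier with at least 3 peaks fewer, against 13.9% of all protein-coding genes with a peak.

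Of the other carboxylate carriers, SLC25A10 kept largely to the same places in the lists and SLC25A1 did so in part. SLC25A10, the dicarboxylate carrier, had 6 control and 5 knockdown peaks, and 5 of its control peaks overlapped a knockdown peak. Its peaks covered 993 and 1018 bp, of which 893 bp were common. With the control list shortened by score to the length of the knockdown list, the SLC25A10 counts turned to 2 control and 5 knockdown peaks. SLC25A1, the citrate carrier that exports carbon for lipid synthesis, had 3 and 4, including an identical 100 bp peak from 19177733 to 19177832 on chromosome 22. Of these, 2 in each list overlapped a peak of the other list, and 125 bp were common to the 394 bp of control peaks and the 200 bp of knockdown peaks. SLC25A21, the oxodicarboxylate carrier, had no peak although its gene spans 494686 bp.

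Carriers of amino acids, carnitine and choline held 15 control and 11 knockdown peaks, on 8 of 12 genes. SLC25A12 and SLC25A13 encode the aspartate/glutamate carriers, the other arm of the malate-aspartate shuttle. SLC25A12, the brain and muscle form (chromosome 2, 171783405 to 171894244, minus strand), had 3 control peaks and 1 knockdown peak. The peak in both lists was the 26860 bp span shown at its start, of which 22 bp lay in the gene, and the other 2 control peaks, of 275 and 75 bp, lay inside the gene. SLC25A13, the liver form, had 3 control and 4 knockdown peaks, and its 65 bp peak of identical limits lay on the opposite strand, with scores of 33.2 and 25.4. The brain-associated carriers gave no uniform picture, as SLC25A22, a glutamate carrier, had 2 control and 4 knockdown peaks and SLC25A18, another glutamate carrier, had none. The neuronal and astrocyte markers given above were far lower in the knockdown list. Their part in the counts of SLC25A12, SLC25A22 and the brain form SLC25A27 was not tested. SLC25A27 had 1 control and 0 knockdown peaks, and SLC25A14, another relative of the uncoupling proteins, had 0 and 2.

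Other amino acid carriers had few peaks, and some of these lay on other genes too. SLC25A15, the ornithine carrier of the urea cycle, had 2 control peaks of 25 and 5005 bp and 0 knockdown peaks, and both overlapped the transcribed pseudogene TPTE2P5. SLC25A29, a carrier of basic amino acids, had 2 and 0, one of them on the opposite strand and overlapping the transcription factor gene YY1. When peaks lying on further genes were left out, the lower carriers numbered 3 in place of 5, 11.5% of the 26 with a peak, against 19.4% of all protein-coding genes at this setting. SLC25A44, a carrier of branched-chain amino acids, had 2 and 1. SLC25A38, a glycine carrier needed for haem synthesis, had 0 and 1, a 931 bp peak with a score of 13.5. The choline carrier SLC25A48 had 1 control peak, of which 5 bp lay in the gene and which also overlapped the chemokine gene CXCL14.

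Of 12 carriers of nucleotides, cofactors and glutathione, 6 had a peak, with 9 peaks in each list. SLC25A39, which imports glutathione into the matrix (chromosome 17, 44319628 to 44324823, minus strand), accounted for 5 of the 9 in each list. A knockdown peak met 4 of its control peaks, and a control peak met all 5 of its knockdown peaks. The knockdown peaks of SLC25A39 included 3 with a score of 20 or more, the highest at 39.7 (rank 1144), while no control peak reached 20 and the highest was 15.0 (rank 8784). The covered length was 2371 bp with the control hairpin and 2136 bp with the knockdown.

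The pyrimidine nucleotide carriers SLC25A33 and SLC25A36 had 2 and 1 control peaks and 1 knockdown peak each. For SLC25A33 the peak in both lists had identical limits and overlapped a ribosomal protein pseudogene, and for SLC25A36 the peaks did not overlap. SLC25A26, the S-adenosylmethionine carrier, and SLC25A32, which carries folate, had 0 control peaks and 1 knockdown peak each. No peak was found on SLC25A16, SLC25A17, SLC25A40, SLC25A42, SLC25A51 or SLC25A52.

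The iron carriers, mitoferrin 1 and 2, deliver iron for haem and iron-sulphur clusters, and each had 1 control peak and 0 knockdown peaks. The SLC25A37 peak was 125 bp wide with a score of 11.1, and the SLC25A28 peak 1376 bp with a score of 10.9, both near the lower edge. Among all protein-coding genes with a single control peak, 43.1% were free of knockdown peaks, as were 5 of the 9 carriers with 1. Among relatives of the uncoupling proteins, SLC25A14 had 0 control and 2 knockdown peaks, of 1418 bp with a score of 21.2 and of 7933 bp with 13.7. SLC25A27 had a 25 bp control peak and no knockdown peak, and SLC25A30 had 1 in each list at nearly the same limits. SLC25A46, a carrier relative of the outer membrane that takes part in mitochondrial dynamics, had 3 and 2, with 2140 and 5362 bp covered.

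SLC25A34, SLC25A35 and SLC25A43, to which no substrate was assigned here, had 1 knockdown peak each and no control peak. All 3 of these peaks overlapped another gene. The SLC25A34 peak was on the opposite strand, with 606 of its 4324 bp in the gene, and overlapped PLEKHM2. The SLC25A35 peak overlapped RANGRF, and the SLC25A43 peak a pseudogene of 7SL RNA. When peaks lying on further genes were left out, the carriers with a knockdown peak only numbered 4 in place of 7, 21.1% of 19, against 20.0% over all protein-coding genes. Of all protein-coding genes with exactly 1 knockdown peak, 31.8% had no control peak.

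How many carrier peaks met a peak of the other list depended on the overlap asked for. With 1 bp or more on the same strand, 39 of the 70 control peaks met one (55.7%, interval 44.1 to 66.8). So did 38 of the 66 knockdown peaks (57.6%, 45.6 to 68.8). Over all protein-coding genes the shares by the 1 bp rule were 45.3% and 54.9%, both inside these intervals. When the overlap had to be reciprocal and at least 50%, the carrier shares fell to 38.6% and 40.9%. No share over all protein-coding genes is given at this stricter rule, so whether the fall is particular to carriers is not known. Identical limits in the lists were found for 10 peaks, 14.3% of the control and 15.2% of the knockdown peaks on carriers, against 15.3% and 18.6% over all protein-coding genes. These 10 lay on SLC25A1, SLC25A3, SLC25A5, SLC25A12, SLC25A13, SLC25A22 and SLC25A33. Among the 17 carriers with peaks in both lists, SLC25A24 and SLC25A36 were the 2 on which no peak overlapped. Each of these had only 1 peak per list, and the same share over all protein-coding genes is not given.

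The peaks were concentrated on a few carriers. In each list the 3 genes with the most peaks there held 28.6% of the control and 36.4% of the knockdown peaks of the family. The genes differed, with SLC25A23 and SLC25A10 leading the control list and SLC25A23, SLC25A3 and SLC25A5 the knockdown list. Peak widths ran from 25 to 26860 bp in each list, with medians of 125 and 143 bp, and median scores were 11.6 and 12.4. Scores of 20 or more were reached by 7 control peaks (10.0%, all protein-coding genes 11.7%) and 9 knockdown peaks (13.6%, against 14.7%). At that threshold SLC25A3, SLC25A5 and SLC25A13 had peaks in both lists, SLC25A12 in the control list only, and SLC25A6, SLC25A14, SLC25A25 and SLC25A39 in the knockdown list only. SLC25A3 then had 3 control peaks and 1 knockdown peak, and SLC25A5 had 2 and 1, the reverse of the order of their full counts. One of the SLC25A5 peaks in each list was the one on the opposite strand, as was the SLC25A13 peak in each.

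The position of narrow peaks, up to 1000 bp, along the genes is given as a description without a test. The last 10% of the gene span held 9 of 54 narrow control peaks (16.7%, interval 9.02 to 28.7) and 5 of 50 narrow knockdown peaks (10.0%, 4.35 to 21.4). Over all protein-coding genes it held 31.2% and 23.7%. The first 10% held 2 control peaks (3.70%, all genes 7.62%) and 5 knockdown peaks (10.0%, all genes 9.38%), and 3 of those 5 were on SLC25A3. Peaks of 1 gene are not independent, so the intervals are too narrow.

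Other genes of mitochondrial transport were also divided between shared and single lists. Of 36 such genes, 21 were in the control list and 21 in the other, with 5 found in each alone. These are 23.8% of the genes in each list, against 26.3% (control) and 17.4% (knockdown) over all protein-coding genes. SLC25 family proteins under other symbols had peaks on 2 of 5 genes, MTCH1 with 6 and 6 and MTCH2, an insertase of the outer membrane, with 6 and 4, and the uncoupling proteins UCP1, UCP2 and UCP3 had none. Of 17 other carriers and channels of the inner membrane, 13 had a peak. Of these, 1 was called lower (7.69%, all protein-coding genes 19.4%) and 4 higher (30.8%, all 10.3%), among them LETM1, a cation exchanger, with 4 and 8 peaks. By any difference in number, 6 of the 13 had fewer knockdown peaks (46.2%, all 46.1%) and 6 had more (46.2%, all 33.3%). Of 11 genes for carrier import, 8 had a peak. Of these, 5 had fewer knockdown peaks (62.5%, all 46.1%) and 1 had more (12.5%, all 33.3%), with TOMM40, the channel of the outer membrane translocase, at 6 and 5. By the call, however, 0 of these import genes were lower and 0 higher (all 19.4% and 10.3%). For the outer membrane channel, VDAC1 had 0 and 2 peaks, and VDAC2 and VDAC3 had 1 in each list.

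Other mitochondrial families are set beside the carriers as a description. A control peak without a knockdown peak was found for 10 of 28 mitochondrial ribosomal protein genes (35.7%) and 10 of 49 respiratory chain genes (20.4%), against 34.6% for the carriers. A knockdown peak without a control peak was found for 13 of 31 (41.9%) and 12 of 51 (23.5%), against 29.2%. Among genes with a peak, 15.2% of the carriers were called lower, against 12.2% of mitochondrial ribosomal protein genes, 8.20% of respiratory chain genes and 3.85% of the other transport genes. Called higher were 6.06% of the carriers, against 9.76%, 9.84% and 19.2%. By share, the carriers had the most lower and the fewest higher genes of these 4 sets. Over all protein-coding genes with a peak, 19.4% were lower and 10.3% higher, both above the carrier shares. The carrier shares rest on 5 and 2 genes and moved with the setting. With peaks in 1 gene only 11.5% were lower, and with the control list shortened by score 12.1% were higher. Differences between the families were not tested.

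**Figure D3:**
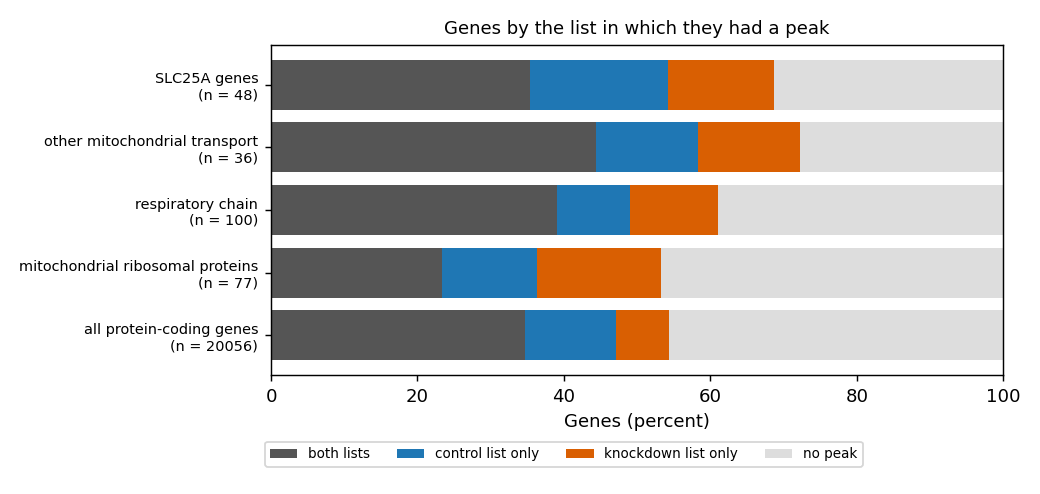
Percent of genes (horizontal axis) with peaks shared by the lists, control peaks alone, knockdown peaks alone or no peak, for the SLC25A genes, 3 other mitochondrial gene sets and all protein-coding genes. The SLC25A genes comprise 17 in both, 9 and 7 in a single list and 15 without a peak.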

How the data were processed

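The submitters' processing notes name fastp 0.20.1 and Bowtie2 2.4.1 as tools and hg38 as build. The sources used here do not give how peaks were called, at what threshold, whether inputs entered or how replicates were combined. A single list for each arm was deposited, holding a score of unstated scale for every peak, and each peak is 1 block whose width includes any intron. The list named for the control titles was taken as the control list and the remaining list as the knockdown list. Genes, spans and start sequences came from RefSeq (GRCh38.p14). Its start table gives a strand for 40 of 48 members. For the other 8 the strand of the peak set the direction. Exons were not analysed here.

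Overlaps used Python 3.11.15, NumPy 2.4.6 and pandas 2.3.3, intervals SciPy 1.17.1 and figures matplotlib 3.10.9. Overlap counting was tested on shifted and thinned copies of control peaks and on made-up intervals at gene ends. Shared peaks needed 1 bp on the same strand. The members, substrate groups and gene lists were chosen with earlier results of these data known. All members enter the counts, and described in full are those with peaks in 1 list only, with a call, with the most or highest-scoring peaks, or with identical peaks. Alternatives covered overlap, strand, score, width, list length, merging and the call. A result on 1 member is not reported here.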

Additional observations from a re-analysis of the deposited data

How the results depend on the processing

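Of the main results under the alternatives, 56 values stayed within 1.5 times the count or inside the interval of the reported share, and 17 did not. The 56 include every value under merging and under overlap on either strand. Those settings changed nothing on the carriers, so they say little about robustness. With scores of 20 or more, few peaks were left, 7 control and 9 knockdown peaks. At this cut 1 carrier was in the control list only (25% of those with a control peak, all genes 47.2%), 4 in the knockdown list only (57.1%, all genes 47.7%) and 3 in both. Of the remaining peaks 42.9% and 33.3% were shared, with no share over all genes given at this cut. By the call, 1 carrier was lower and 1 higher (each 12.5% of 8, all genes 6.39% and 7.37%). SLC25A3 then had 2 peaks fewer in the knockdown list (a difference of -2) and SLC25A5 1 fewer (-1), both reversed. With peaks in 1 gene only, 4 carriers were in the knockdown list only (21.1%, all genes 20.0%) and 3 were called lower (11.5%, all genes 19.4%). With narrow peaks only, 1 was called higher (3.85%, all genes 10.6%). With the control list shortened by score, 4 were called higher (12.1%, all genes 15.5%) and SLC25A10 reversed to a difference of 3. A reciprocal overlap of at least 50% gave shared shares of 38.6% and 40.9%, with no share over all genes given at this rule. With at least 3 peaks fewer or more, 1 carrier was lower and 0 higher (all genes 13.9% and 6.38%). No paired analysis was possible because each arm has a single list in which replicates are not separate, and for the same reason no replicate could be left out. Depth is unknown, and 41 of 70 control and 32 of 66 knockdown peaks on carriers score under 12, close to the lower edge of 10.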
